A study of Mus musculus with 45 samples.

Results

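In mouse hippocampal primary neuron cultures, 211 protein-coding genes kept their level during bicuculline (Bic)-induced action potential (AP) firing and had a higher level when firing was interrupted by tetrodotoxin (TTX) together with bath-applied NMDA. They were chosen from 21982 protein-coding gene rows, among 54532 gene rows in all, with the genes of the mitochondrial genome left out. A gene was taken when its mean level after 2 h Bic was at least 3 CPM (gene counts scaled to a total of 1000000 per library), when its mean levels after 0.5, 1 and 2 h Bic each lay between 15% below and 18% above the untreated control, and when its mean level after the long protocol (LP) with TTX and NMDA was at least 1.8 times that after 2 h Bic. The expression minimum was met by 11264 genes and the flat window by 7343 of these, so that 2.87% of the flat genes were members. Because the rule used the levels in the control, in Bic and in LP TTX/NMDA, the values of these conditions are given as a description without a test.

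The cultures came from newborn C57BL/6N mice and received B27, rat serum and the antimitotic cytosine arabinoside, and all samples were poly-A RNA from whole wells treated, by their labels, on day 10 or 11 in vitro. Control cultures were untreated, and the Bic groups received 50 µM Bic, a GABA type A receptor antagonist, for 0.5, 1 or 2 h. In the short protocol (SP), 0.5 h Bic was followed by 0.5 h with Bic and TTX (1 µM), a sodium channel blocker that stops AP firing, or with Bic, TTX and NMDA (30 µM). In the LP, 1 h Bic was followed by 1 h with Bic and TTX, with Bic, TTX and NMDA, or with Bic and TBOA (50 µM), an inhibitor of glutamate transporters which prolongs the action of released glutamate. There were 5 libraries per condition, 45 over 9 conditions, and they came from 5 culture preparations numbered 1, 3, 6, 7 and 8, and values listed for a condition follow this order of the preparations. The libraries held 11316580 to 81129276 counts on genes (median 26239614).

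Astrocytes take up synaptic glutamate through the transporters Slc1a2 (GLT-1) and Slc1a3 (GLAST) and convert it to glutamine with glutamine synthetase, encoded by Glul. They also buffer extracellular potassium and water with Kcnj10 and Aqp4 and supply neurons with lipid on particles that contain apolipoprotein E, and primary neuron cultures hold such glial cells beside the neurons even when an antimitotic limits their growth. NMDA receptors outside synapses, which bath-applied NMDA reaches, are coupled to excitotoxic signaling that ends in the death of neurons.

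The members included many genes that are known from astrocytes, and promoters are shown here for 4 members, chosen for their role or their rank, because the promoters of the members held fewer CpG dinucleotides than those of other flat genes. Slc1a3 is the glutamate transporter, Fabp7 the fatty acid-binding protein of radial glia and astrocytes, Eda2r the TNF receptor family member with the largest NMDA ratio, and Abca1 the cholesterol exporter that loads apolipoprotein E particles with lipid. The sequences are RefSeq promoter windows of mouse build GRCm38.p6, read 5′ to 3′ on the strand of the gene and ending at the annotated gene start. Capitals mark, on either strand, the letters of a CCAAT box or a TATA box (TATAAA). They also mark a canonical E-box (CACGTG). The last motif in capitals is the antioxidant response element core, whose letters are given with the motif counts.
Slc1a3, chr15:8710808-8711057, minus strand: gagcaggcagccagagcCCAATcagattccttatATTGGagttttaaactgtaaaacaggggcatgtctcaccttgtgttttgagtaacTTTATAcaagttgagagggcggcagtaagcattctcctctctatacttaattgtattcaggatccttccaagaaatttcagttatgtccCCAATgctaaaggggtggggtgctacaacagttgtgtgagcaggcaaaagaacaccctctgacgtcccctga
Fabp7, chr10:57784673-57784880, plus strand: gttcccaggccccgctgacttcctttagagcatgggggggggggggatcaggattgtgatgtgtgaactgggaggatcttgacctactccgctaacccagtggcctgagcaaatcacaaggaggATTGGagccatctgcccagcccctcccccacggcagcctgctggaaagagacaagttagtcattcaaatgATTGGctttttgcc
Eda2r, chrX:97377217-97377459, minus strand: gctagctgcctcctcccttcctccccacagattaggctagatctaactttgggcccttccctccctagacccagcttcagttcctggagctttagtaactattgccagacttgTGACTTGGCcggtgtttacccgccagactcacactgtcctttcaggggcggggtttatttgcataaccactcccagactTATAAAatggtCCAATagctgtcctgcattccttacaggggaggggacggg
Abca1, chr4:53159896-53160145, minus strand: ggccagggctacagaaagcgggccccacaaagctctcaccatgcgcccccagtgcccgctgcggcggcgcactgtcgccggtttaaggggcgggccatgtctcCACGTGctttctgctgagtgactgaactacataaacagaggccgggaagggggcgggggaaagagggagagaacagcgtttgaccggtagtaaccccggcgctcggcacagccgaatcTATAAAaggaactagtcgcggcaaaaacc
The windows of Slc1a3, Fabp7 and Eda2r held 2, 3 and 4 CpG dinucleotides, whereas that of Abca1 held 20.

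Of all counts on genes, the members took 0.576 ± 0.107% after 2 h Bic and 1.13 ± 0.306% after LP TTX/NMDA (SD, n = 5 in each). In the individual preparations the share was 0.552, 0.651, 0.445, 0.714 and 0.518% after 2 h Bic and 1.37, 1.1, 0.841, 1.52 and 0.839% after LP TTX/NMDA. The share was higher with NMDA in each of the 5 preparations, and the lowest NMDA library lay above the highest Bic library. After LP TTX without NMDA, the members took 0.620, 0.659, 0.451, 0.723 and 0.412%, which overlapped with 2 h Bic. The preparations kept part of their order across conditions, with the largest shares in preparations 3 and 7 in most of them and small shares in preparations 6 and 8.

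**Figure D1:**
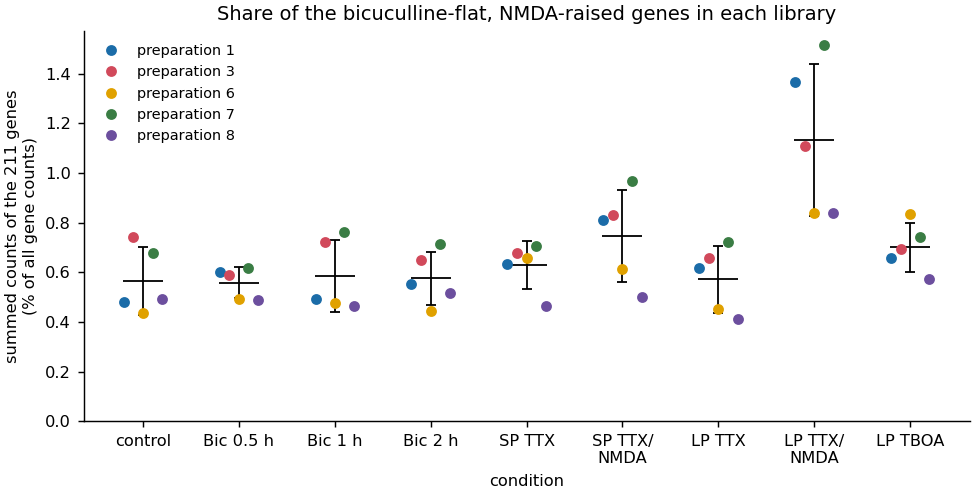
Share of the 211 members in all counts on genes (percent, vertical axis from 0) in each of the 45 libraries, by condition, with 1 point per culture preparation and the condition mean ± SD (n = 5) in black. The 5 LP TTX/NMDA libraries reach 0.839 to 1.52%, and the other 40 libraries lie between 0.412 and 0.967%.

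A pair of libraries from preparation 6 stood apart and touched several of the results. In SP TTX, the level of Gfap, the intermediate filament of astrocytes, was 651 CPM in preparation 6 and 186 to 309 CPM in the other 4 preparations. In LP TBOA, the median member was at 1.84 times its LP TTX level in preparation 6, against 0.989 to 1.30 times in the others. The summed level of 12 astrocyte markers was 1848 CPM in the SP TTX library of preparation 6, the highest of that condition, and 1936 CPM in its LP TBOA library, again the highest. For the main counts, medians and called genes that rest on SP TTX or LP TBOA, values without preparation 6 are therefore given as well.

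The composition of the libraries changed with NMDA, which bears on every ratio of CPM. Counts on mitochondrially encoded genes made up 0.705 ± 0.0867% of all counts after 2 h Bic and 1.65 ± 0.170% after LP TTX/NMDA (SD, n = 5). With TMM scaling in place of total counts, all expressed genes moved by −0.18 on the log2 scale in this comparison, the median ratio of the members fell to 1.73, and 59 genes passed the rule, of which 51 were members. The members' ratios are thus relative to total counts. The RNA came from whole wells, where more cells of a type, more RNA per cell of that type and less RNA from other cells cannot be told apart.

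The ratio of LP TTX/NMDA to 2 h Bic ranged from 1.8 to 2.46 over the members with a median of 1.96, and 84 members reached 2.0. For the other 7132 flat genes the median ratio was 1.07. The members were expressed at a low level, with a median of 8.93 CPM after 2 h Bic and 17.4 CPM after LP TTX/NMDA, against 49.1 CPM after 2 h Bic for the other flat genes. Just inside the threshold were Slc12a7 (1.8, from 5.64 to 10.2 CPM), a potassium chloride cotransporter, Dcxr, a xylulose reductase, and Vamp3, a vesicle SNARE protein. Just outside it were Sorbs3, an adaptor of focal adhesions, Vcan (1.8, from 18.1 to 32.5 CPM), the matrix proteoglycan versican, and the RNA-binding protein Msi2. The ratios thus ran on across the threshold without a gap.

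The level relative to LP TTX was also given for the members, although LP TTX/NMDA was part of their choice. The median ratio of LP TTX/NMDA to LP TTX was 1.97, and it was 2.20, 1.69, 1.88, 2.06 and 1.97 in the 5 preparations. TTX alone left the members near their Bic level, with a median ratio of LP TTX to 2 h Bic of 1.01. In every preparation, 210 of the 211 members were higher in LP TTX/NMDA than in 2 h Bic, where 24.7% of all 32243 genes compared were higher in all 5. The exception was Ttr, the thyroid hormone carrier transthyretin, with 11.1, 1.14, 0.679, 5.72 and 0.565 CPM after 2 h Bic and 18.1, 2.45, 0.594, 19.8 and 0.477 CPM after LP TTX/NMDA. Its level depended more on the preparation, with preparations 1 and 7 highest, than on the treatment.

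The rule was also applied to 4 preparations at a time, and the ratio of the genes so chosen was read in the preparation left out. Between 118 and 258 genes were chosen, and their median ratio in the preparation left out was 2.48, 1.65, 1.84, 2.13 and 1.59 for preparations 1, 3, 6, 7 and 8, against 1.03 to 1.08 for the other flat genes. All chosen genes were higher with NMDA in the left-out preparations 1, 3 and 7, and all but 1 were in preparations 6 and 8. The 5 choices overlap and share libraries, so these values are a description.

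The astrocyte markers contributed the largest number of members of the cell type lists, although the smaller list of pericytes and fibroblasts had the same share of its flat genes among the members (66.7%). Of 12 astrocyte markers, 11 reached the expression minimum, 9 were flat and 6 were members, namely Aqp4, Gja1, Slc1a3, Gfap, Aldh1l1 and Aldoc. Their list summed to 1462 CPM after 2 h Bic (1248 to 1751) and to 2126 CPM after LP TTX/NMDA (1618 to 2787). The list did not move as a whole. Slc1a2, the main glutamate transporter of mature astrocytes, had 510 CPM after 2 h Bic and 483 CPM after LP TTX/NMDA, and Atp1b2, a sodium pump subunit, had a ratio of 1.08. Fgfr3, a growth factor receptor, fell just short with a ratio of 1.79, S100b, a calcium-binding protein, had a ratio of 1.99 but was not flat in Bic, and Sox9, a transcription factor of astrocytes, was neither flat nor over the threshold at 1.20. The gap junction gene Gjb6 was nearly absent, at 0.0554 CPM after 2 h Bic.

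No neuronal marker was a member. The 10 pan-neuronal markers summed to 8710 CPM after 2 h Bic (8494 to 8950) and 7516 CPM after LP TTX/NMDA (7246 to 7837). The 6 markers of excitatory hippocampal neurons went from 2529 to 1449 CPM, while the 8 markers of inhibitory neurons went from 2157 to 2857 CPM. These sums moved in the same libraries in which the members were higher, and their part in the members' ratios was not tested.

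The marker lists of other cell types summed to lower levels. Of 8 markers of pericytes and fibroblasts, Lum, Col3a1, Rgs5 and Col1a2 were members, and the list summed to 211 CPM (128 to 331) after 2 h Bic and 394 CPM (197 to 519.7) after LP TTX/NMDA. Of 10 markers of the oligodendrocyte lineage, 3 were members, among them Olig1 and Olig2, and the list went from 168 to 290.5 CPM. Mbp, the myelin basic protein gene, had a ratio of 1.09, and Sox10, which defines the lineage, had a mean of 0.141 CPM after 2 h Bic. Of 10 microglia markers, 2 reached the expression minimum and none was a member. Their list went from 27 to 43.9 CPM, with Cx3cr1 at 0.351 CPM and Aif1 at 0.416 CPM after 2 h Bic. Of 8 endothelial markers, 1 reached the minimum and none was a member, and the list went from 6.80 to 9.27 CPM. The list of dividing cells, with 2 of 8 markers at the minimum, held Top2a, the DNA topoisomerase, and went from 15 to 24.1 CPM.

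**Figure D2:**
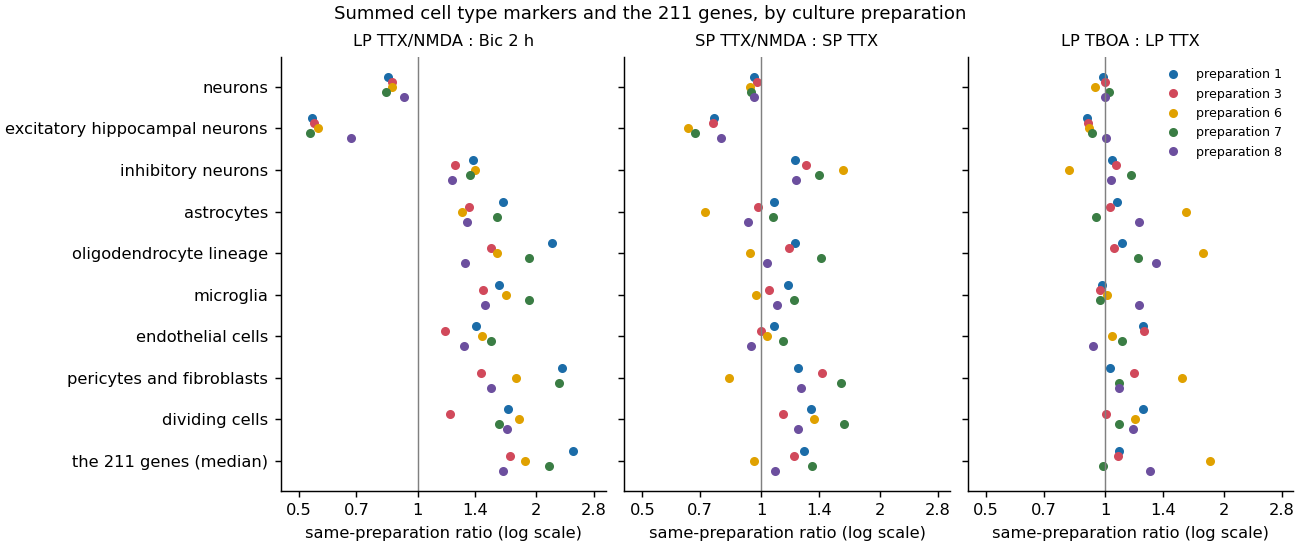
Same-preparation ratio (log scale, grey line at 1) of the summed CPM of 9 cell type marker lists and, on the lowest line, the median ratio of the members, in LP TTX/NMDA against 2 h Bic (left), SP TTX/NMDA against SP TTX (middle) and LP TBOA against LP TTX (right), with 1 point per culture preparation. On the left the members lie between 1.65 and 2.48, the pan-neuronal and excitatory lists below 1 and the other lists above 1, while preparation 6 puts the members at 0.957 in the middle and 1.84 on the right.

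By their known roles, 164 of the members were sorted into 8 groups after their values had been seen, and 47 were not sorted. The median ratio of the groups to 2 h Bic lay between 1.88 and 2.00, and the smallest group was that of DNA replication with Top2a and Mcm3. The 16 transporters, channels and pumps had a median ratio of 2.00. Slc1a3 had 173, 219, 143, 247 and 188 CPM after 2 h Bic and 468, 424, 300.4, 543 and 354 CPM after LP TTX/NMDA, which is a ratio of means of 2.16. All 5 NMDA libraries lay above all 5 Bic libraries, and TTX alone gave 198 ± 50.8 CPM. Kcnj10, the potassium channel Kir4.1 of astrocytes, had 81.6 ± 25.6 CPM after 2 h Bic and 171 ± 63.1 CPM after LP TTX/NMDA. Aqp4, the water channel of astrocyte endfeet, had a ratio of 2.33, Slc7a2, a transporter of cationic amino acids, one of 2.28, and Slco1c1, a transporter of thyroid hormone, one of 2.24.

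Lipid handling and metabolism made up 33 members with a median ratio of 1.96. Apoe was the most highly expressed member, with 593 CPM per kb of exonic length after LP TTX/NMDA, followed by Fabp7 with 413, Glul with 155, the glutathione transferase Gstm1 with 124 and Gfap with 105 CPM per kb. Apoe counts were 661, 705, 503, 918 and 633 CPM after 2 h Bic and 1670, 1118, 866, 1832 and 850.2 CPM after LP TTX/NMDA. Each preparation was higher with NMDA, but the ranges overlapped because the preparations differed. Fabp7 went from 245 ± 47.3 to 517 ± 126 CPM and Glul from 276 ± 62.2 to 516 ± 156 CPM. Abca1, of the transporter group, had 87.5, 75.0, 60, 101 and 63.5 CPM after 2 h Bic and 219.6, 145, 109, 243 and 146 CPM after LP TTX/NMDA. Its lowest NMDA library lay above its highest Bic library. Hacd4, a dehydratase of fatty acid elongation, had a ratio of 2.34 at a low level of 4.45 CPM after 2 h Bic.

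Receptors, ligands and signaling enzymes numbered 25, with the largest ratio among all members in Eda2r, a receptor of the TNF family that is known as a p53 target. Eda2r had 9.87, 10.7, 6.21, 11.8 and 8.23 CPM after 2 h Bic and 26.4, 24.8, 15.4, 29.9 and 18.6 CPM after LP TTX/NMDA, a ratio of 2.46 without overlap between the conditions. Ptprz1, a receptor phosphatase of glial progenitors and astrocytes, went from 296 ± 43.5 to 618 ± 112 CPM. The 15 transcription factors and coregulators included Nfe2l2, the regulator of antioxidant genes (11.7 ± 2.85 to 24.7 ± 7.29 CPM), Yap1, a coactivator of the Hippo pathway (13.2 ± 2.42 to 24.9 ± 4.48 CPM), and Mdfic, an inhibitor of MyoD family factors, with a ratio of 2.31.

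The 37 genes of adhesion, membrane organization and cytoskeleton had a median ratio of 1.94 and the 21 genes of the extracellular matrix and its proteases one of 1.93. Itga1, an integrin subunit that binds collagen, had 3.02, 4.76, 3.37, 3.88 and 2.22 CPM after 2 h Bic and 7.71, 8.34, 9.95, 9.11 and 3.82 CPM after LP TTX/NMDA. Preparation 8 was lowest in both conditions, so that the ranges overlapped. Jam2, a junctional adhesion molecule, had a ratio of 2.22, and Gfap went from 236 ± 51.9 to 445 ± 175 CPM. Sparc, a secreted matrix protein of glia and mesenchymal cells, went from 150.4 ± 45.8 to 290.4 ± 99.2 CPM.

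Phagocytosis, lysosome and innate defense held 15 members with a median ratio of 1.97, among them Eif2ak2, the kinase PKR that is activated by double-stranded RNA, with a ratio of 2.28. Several members are known from phagocytes, while only 2 of the 10 microglia markers reached the expression minimum. Lyz2, the lysozyme of macrophages, had 9.13, 11.5, 17.8, 13 and 8.71 CPM after 2 h Bic and 19.5, 21.5, 35.3, 29.7 and 18.6 CPM after LP TTX/NMDA. The macrophage elastase Mmp12, a matrix protease, had 5.57, 8.80, 9.60, 8.39 and 5.40 CPM after 2 h Bic and 12.7, 14.5, 24.3, 19.1 and 13.2 CPM after LP TTX/NMDA. Both genes were highest in preparation 6, whereas Slc1a3 and Apoe were lowest in preparation 6 after 2 h Bic. Cped1, which was not sorted, had the second largest ratio of all members, 2.39.

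**Figure D3:**
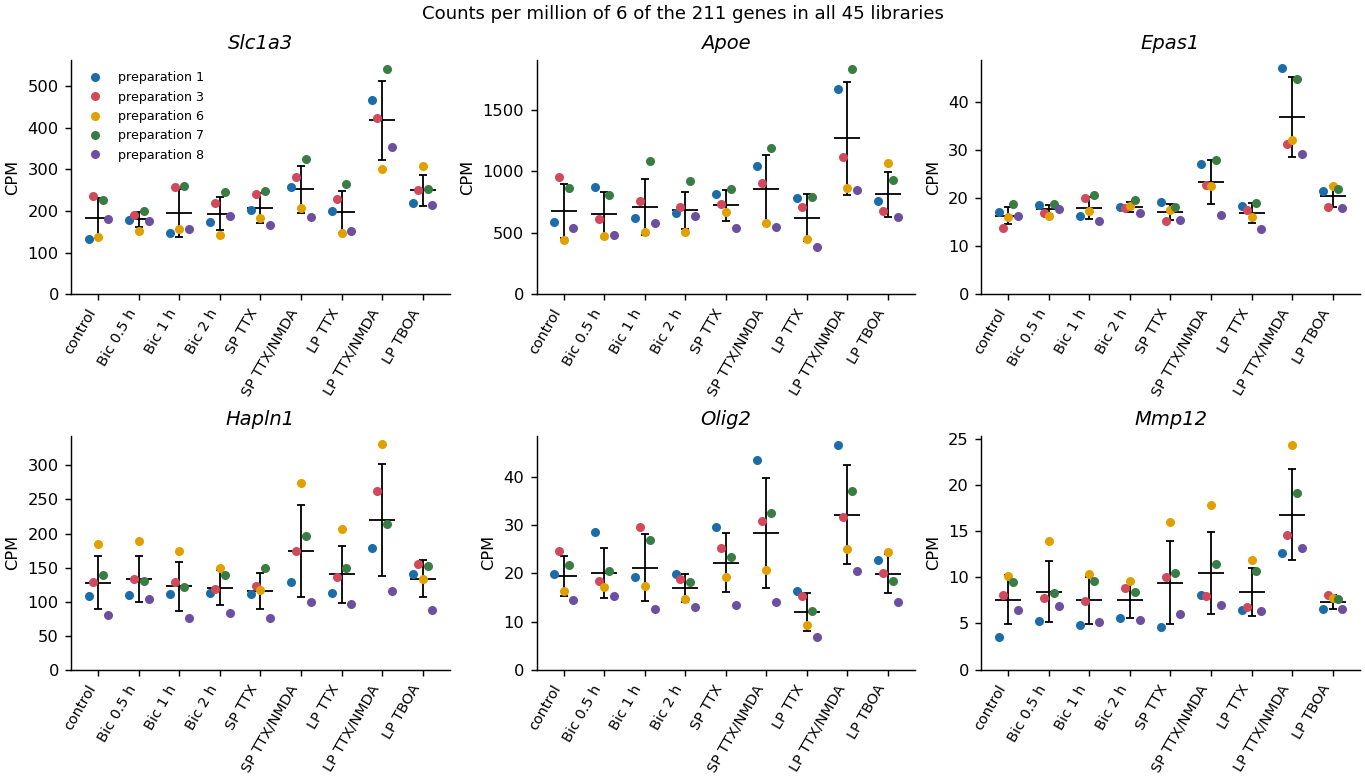
CPM of Slc1a3, Apoe, Epas1, Hapln1, Olig2 and Mmp12 in the 9 conditions, 1 point per culture preparation and the mean ± SD (n = 5) in black, with each vertical axis starting at 0. LP TTX/NMDA has the highest mean for all 6 genes, and Hapln1 reaches 275 CPM in the SP TTX/NMDA library of preparation 6.

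Whether NMDA raised the members within 0.5 h was asked in the SP, whose TTX and TTX/NMDA libraries took no part in the choice. In all, 3 members rose in SP TTX/NMDA over SP TTX, namely Hapln1, Amy1 and Epas1, and none fell when p-values of the quasi-likelihood test of edgeR were adjusted by Benjamini-Hochberg over 32229 genes. Of all genes tested, 0.956% rose and 3.32% fell, so the 1.42% of the members that rose is near the background. Without adjustment, 27 members had a p-value under 0.05 and a higher level with NMDA, and 0 had one and a lower level. The median log2 fold change of the members was 0.18, against −0.01 for the other flat genes, and 8.97% of those genes fell while 0 of 211 members did. When only genes passing filterByExpr were tested, whose calls on simulated counts were more often true, 0 members were called without a block.

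Hapln1 encodes a link protein that ties hyaluronan to proteoglycans in perineuronal nets. It had 111, 123, 117, 149 and 75.2 CPM with SP TTX and 129, 174, 275, 196 and 99.2 CPM with SP TTX/NMDA (chr13:89539796-89611652, plus strand). It was higher with NMDA in every preparation, most of all in preparation 6, and the log2 fold change was 0.53 ± 0.16 (SE) with an adjusted p of 0.0455 in edgeR's quasi-likelihood test. Without preparation 6 the log2 fold change was 0.32 and the adjusted p 0.148, so the call without a block depended on that preparation. That call was also lost in DESeq2 (adjusted p 0.278) and with DESeq2 size factors in edgeR (0.0623). The same held with filterByExpr (0.175) and in a fit over all 45 libraries (0.223). With the preparation as a block and filterByExpr, edgeR called Hapln1 over all preparations (0.49, adjusted p 0.0193). This fit also called Hapln1 without preparation 6 (0.32, adjusted p 0.000625).

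Epas1, the hypoxia-inducible factor HIF-2α that astrocytes and endothelial cells express, is at chr17:86753700-86833410 on the plus strand. Its levels were 19, 15.1, 17.4, 18.2 and 15.4 CPM with SP TTX and 27, 22.7, 22.5, 27.9 and 16.4 CPM with SP TTX/NMDA. Every preparation was higher, with the smallest difference in preparation 8, and the log2 fold change was 0.38 ± 0.11 (SE) with an adjusted p of 0.0306 in edgeR's quasi-likelihood test. Without preparation 6 it was 0.41 with an adjusted p of 0.0218, and the call was lost without preparation 1, 3 or 7 (0.32 to 0.37).

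Amy1, an amylase gene whose reads can be shared with near-identical amylase genes and whose level is therefore uncertain, had 5.87, 9.19, 4.31, 6.55 and 7.15 CPM with SP TTX and 9.05, 8.58, 10.4, 7.10 and 13.4 CPM with SP TTX/NMDA. It was higher in 4 of 5 preparations, and the log2 fold change was 0.50 ± 0.15 (SE) with an adjusted p of 0.0496 in edgeR's quasi-likelihood test. The call was lost without preparation 6 (0.35, adjusted p 0.202) and with filterByExpr, without a block (0.51, adjusted p 0.118) and with one (0.54, adjusted p 0.0527), and it was kept with the block alone (0.52). It was also lost without preparation 1 (adjusted p 0.108), in DESeq2 (0.0670), with DESeq2 size factors in edgeR (0.0588) and in a fit over all 45 libraries (0.0781). With the block and filterByExpr over the preparations other than 6, edgeR kept it (0.38, adjusted p 0.0478).

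Because each preparation contributed to both conditions, the test was also run with the preparation as a block on genes kept by filterByExpr of edgeR (the paired fit). In the paired fit 29 members (13.7%) rose and 0 fell, where 5.93% of all 15705 genes tested and 5.45% of the other flat genes rose, and 14% of the other flat genes and 10.3% of all genes fell. Of the 29 genes, which apart from those named above were named after their values had been seen, Slc1a3 (0.21, adjusted p 0.0162), Ptprz1 (0.31, 0.0207), the bicarbonate cotransporter Slc4a4 (0.20, 0.0246), the brevican gene Bcan (0.28, 0.0121) and the glycogen-targeting phosphatase subunit Ppp1r3c (0.33, 0.0113) are known from glia. Itga1 had the largest log2 fold change of the paired calls after Hapln1, 0.44 with an adjusted p of 0.0121, and Abca1 had 0.27 with an adjusted p of 0.0103. Eda2r, which had the largest ratio in the LP, had 0.24 with an adjusted p of 0.032 here. Over the preparations other than 6, the paired fit called 113 members higher (53.6%), 27 of the 29 among them, and 0 lower, beside 11.1% higher and 13.6% lower among all genes.

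The neuronal markers moved in the same comparison. The excitatory list summed to 2650 CPM with SP TTX and 1929 CPM with SP TTX/NMDA, and 5 of its 6 genes fell in the paired fit. The inhibitory list went from 1790 to 2412 CPM, and 5 of its 8 genes rose in that fit. Counts on mitochondrially encoded genes went from 0.805 ± 0.153% to 1.12 ± 0.207% (SD, n = 5), and the part of these changes in the members' values was not tested.

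The ratio of SP TTX/NMDA to SP TTX had a median of 1.19 over the members, and its median was 1.28, 1.21, 0.957, 1.34 and 1.09 in the 5 preparations. In preparation 6, whose SP TTX library stood apart, the median was under 1. In all 5 preparations 70 members (33.2%) were higher, where 12.2% of all genes and 24.7% of the other flat genes were, and 0 were lower in all 5, beside 5.54% of all genes. In the 4 preparations other than 6, 164 members (77.7%) were higher throughout, where 18% of all genes and 37.8% of the other flat genes were. Without preparation 6, the median log2 fold change was 0.26 in place of 0.18 and 6 members rose in edgeR's quasi-likelihood test. The astrocyte list summed to 1617 CPM with SP TTX (1338 to 1848) and 1537 CPM with SP TTX/NMDA (1239 to 1833). When preparation 6 was left out, the order of the means was the opposite, with 1559 and 1588 CPM. Of its 12 genes Slc1a2 fell (−0.38) and none rose. In the paired fit Slc1a3 rose and Slc1a2 fell (−0.37).

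Glutamate spillover was compared with firing block at the same times in LP TBOA and LP TTX, neither of which entered the choice of the members. In all, 3 members rose with TBOA, among them Olig2 and Olig1, and 0 fell, in edgeR's quasi-likelihood test over 32418 genes, of which 0.759% rose and 3.5% fell. Of the other flat genes, 0.505% rose and 4.78% fell. The members had a median log2 fold change of 0.22 and the other flat genes one of 0.01, and 77 members had an unadjusted p-value under 0.05 with a higher level in TBOA, none with a lower one.

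Olig2 and Olig1 encode transcription factors of the oligodendrocyte lineage that are also expressed in glial progenitors, and the genes lie 41.1 kb apart on the plus strand of chromosome 16. Olig2 had 16.3, 15.3, 9.29, 12.2 and 6.78 CPM with LP TTX and 22.8, 20.1, 24.4, 18.4 and 14 CPM with LP TBOA. It was higher in every preparation, although the highest TTX library lay above the lowest TBOA library, and the log2 fold change was 0.70 ± 0.15 (SE) with an adjusted p of 0.0013 in edgeR's quasi-likelihood test. Without preparation 6 it was 0.58 with an adjusted p of 0.00287, and Olig2 kept its call over the genes that pass filterByExpr (adjusted p 0.0425), but lost it in DESeq2 (0.0611) and in a fit over all 45 libraries (0.0654).

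Olig1 had 94.6, 90, 60.3, 83.1 and 52.3 CPM with LP TTX and 104, 90.9, 132, 109.7 and 83.0 CPM with LP TBOA. The difference was small in preparations 1 and 3 and large in preparation 6, and the log2 fold change was 0.42 ± 0.11 (SE) with an adjusted p of 0.0173 in edgeR's quasi-likelihood test. Without preparation 6 the call without a block was lost, with 0.27 (adjusted p 0.149). That call was also lost in DESeq2 (adjusted p 0.0570), with filterByExpr (0.113) and in a fit over all 45 libraries (0.306). With DESeq2 size factors in edgeR it was kept (0.0113). The paired fit called Olig1 over all preparations (0.44, adjusted p 0.0236) and without preparation 6 (0.30, adjusted p 0.0306).

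The paired fit called 24 members (11.4%) higher and 0 lower with TBOA than with TTX. Of all 15892 genes tested 3.5% were higher and 8.74% lower, and 2.58% of the other flat genes were higher. Abca1 (0.32, adjusted p 0.00352), Nes, the intermediate filament nestin of neural progenitors (0.30, adjusted p 0.00521), Lrig1, a feedback inhibitor of growth factor receptors (0.40, adjusted p 0.00756), Notch3 (0.35, adjusted p 0.0108) and Kcnj10 (0.37, adjusted p 0.048) were among them, in this case named after their values had been seen. The calls in the SP and with TBOA, which rest on different libraries, had Nes, the TLR4 interactor Tril, Ptprz1, Epas1, Slc4a4 and Abca1 in common, which are 20.7% of the 29 and 25% of the 24. Of all 211 members, 11.4% were called higher with TBOA and 13.7% in the SP. The overlap over all genes is not given, so no conclusion is drawn from the shared calls. Over the preparations other than 6, the paired fit called 16 members higher with TBOA (7.58%), 15 of the 24 among them, and 0 lower, beside 3.4% higher and 8.06% lower among all genes. Kcnj10 (adjusted p 0.0973), Tril (0.0787) and Epas1 (0.0528) were then no longer called with TBOA by edgeR.

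The median member was higher with TBOA in 4 of the 5 preparations, at ratios of 1.08, 1.08, 1.84, 0.989 and 1.30 to LP TTX. Higher in all 5 preparations were 58 members (27.5%), where 6.69% of all genes and 14.3% of the other flat genes were higher. In the 4 preparations other than 6, 58 members (27.5%) were higher throughout, where 8.93% of all genes and 18.6% of the other flat genes were. Without preparation 6 the median log2 fold change was 0.11 in place of 0.22 in the test without a block, which then called Olig2 alone. The astrocyte list summed to 1442 CPM with LP TTX (1210 to 1795) and 1655 CPM with LP TBOA (1530 to 1936), or to 1500 and 1585 CPM without preparation 6, and it was lower with TBOA in preparation 7. Of its 12 genes Sox9, which is no member, was the 1 called higher in either fit. The excitatory list went from 2431 to 2260 CPM, or from 2437 to 2278 CPM without preparation 6. In the paired fit 2 of its 6 genes were lower. The inhibitory list went from 2105 to 2137 CPM with no gene called. The oligodendrocyte list went from 154 to 195 CPM, or from 161 to 187 CPM without preparation 6, and 3 of its 10 genes were higher in that fit. The part of these changes in the members' values was not tested. The 15 members of phagocytosis, lysosome and innate defense had a median ratio of TBOA to TTX of 1.2, beside 1.21 for all members, and 3 of them were higher in all 5 preparations. Lyz2 of this group had a ratio of 0.986, and Mmp12 of the matrix group had one of 0.870.

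**Figure D4:**
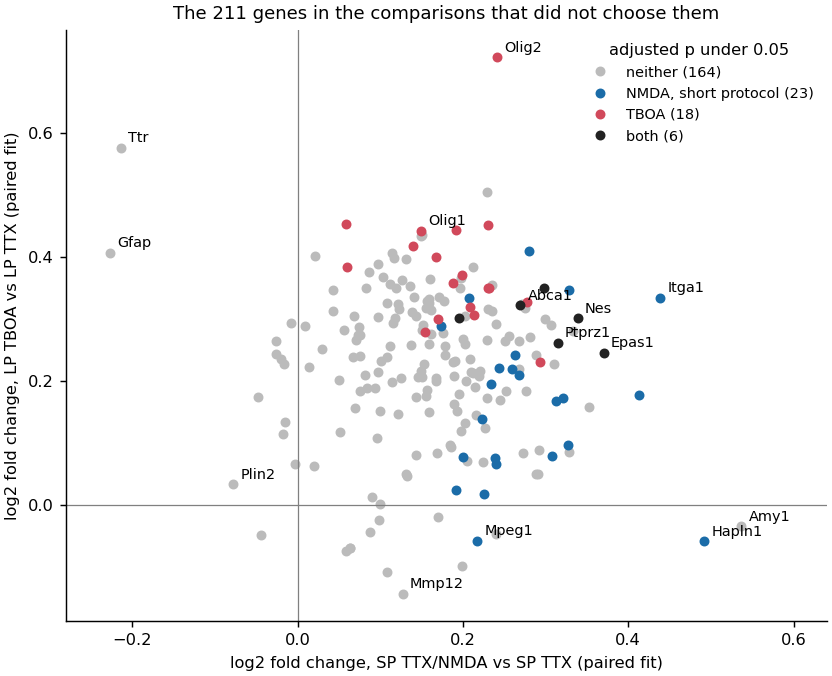
Log2 fold change of each of the 211 members in SP TTX/NMDA against SP TTX (horizontal) and in LP TBOA against LP TTX (vertical) from the paired fit, 2 comparisons that share no library, with colors for an adjusted p under 0.05 in either or both. Olig2 is highest with TBOA, and Hapln1 and Itga1 lie far to the right with NMDA.

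Between LP TTX and SP TTX, which differ in the length of both the Bic and the TTX phase, the members differed little. Olig2 was the 1 member called, with a log2 fold change of −0.83 ± 0.16 (SE) and an adjusted p of 0.000614 in edgeR's quasi-likelihood test, and 0 members rose, where 3.57% of all 32532 genes tested rose and 2.77% fell. Olig2 had 29.6, 25.2, 19.3, 23.5 and 13.5 CPM with SP TTX, and its LP TTX level was lower in every preparation (values above). At an unadjusted p-value under 0.05, 3 members were higher and 6 lower. In the paired fit 3 members rose, namely the integrin subunit Itgav (0.22), Hapln1 (0.33) and the cystine transporter Slc7a11 (0.44), and 5 fell, namely Olig2 (−0.85), Olig1 (−0.24), the receptor Gpr37l1 of astrocytes (−0.26), the cytokine gene Csf1 (−0.33) and Tril (−0.16), beside 12% and 10.6% of all genes. When preparation 6 was left out, the paired fit gave 10 higher and 3 lower, beside 13% and 12.2% of all genes, with the 3 that rose and Olig2, Olig1 and Tril among them. Olig2 had −0.82 and an adjusted p of 8.11e-05 without preparation 6 in the test without a block. The median log2 fold change was −0.07, and without preparation 6 it was 0.03.

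The lists of stress and signaling pathways had few flat genes each, so their shares rest on small numbers, beside 2.87% for all flat genes. The p53 target list contributed Eda2r and Tnfrsf10b, the death receptor for TRAIL (3.20 ± 0.551 to 6.21 ± 1.64 CPM), of 9 flat genes (22.2%). The integrated stress response and the Nrf2-linked redox genes shared 1 member, Slc7a11 (17.4 ± 3.43 to 32.4 ± 5.05 CPM), which imports cystine in exchange for glutamate. Each of these lists had 11 flat genes (9.09%). The NF-kB and cytokine list held Icam1, an adhesion molecule (4.29 ± 1.57 to 8.02 ± 3.12 CPM), the Notch list Notch3, the hypoxia list the prolyl hydroxylase gene Egln3 and the clock list the repressor Bhlhe41, with 1 member each. In this order the lists had 3 (33.3%), 6 (16.7%), 9 (11.1%) and 6 (16.7%) flat genes. The cytosolic heat shock response, the FoxO-linked genes, the unfolded protein response of the ER, the Bcl2 family, the Wnt targets, the TGF-beta and BMP targets and the SRF, MRTF and YAP targets held none. In this order they had 8, 4, 10, 9, 2, 4 and 1 flat genes, so an empty list says little beside the share over all flat genes. None of the 63 flat ribosomal protein genes was a member, although their list had a median ratio of 1.4, and none of the 85 flat C2H2 zinc finger genes was. Solute carriers contributed 8 members of 141 flat genes (5.67%) and channels 3 of 88 (3.41%), beside 2.87% for all flat genes.

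The promoters of the members were poorer in CpG dinucleotides than those of the other flat genes. A RefSeq promoter window of 300 bases, from 250 before to 50 after the start, was at hand for 173 members and 5627 other flat genes. The members' windows held a median of 14 CpG dinucleotides (quartiles 6 and 22) and those of the other flat genes 22 (15 and 30). Windows with 5 CpG dinucleotides or fewer made up 24.3% (42) of the members and 5.35% (301) of the others. Slc1a3 and Eda2r were among the 42, and Fabp7 was not. The GC content differed less, with medians of 60.3% and 62.0%. The members were also expressed at a lower level (8.93 against 49.1 CPM), and the part of expression level in the CpG difference was not tested. Genomic span (medians 32.4 and 29.9 kb), exonic length (5.0 and 4.96 kb) and the number of exon blocks (11 and 11) were close.

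**Figure D5:**
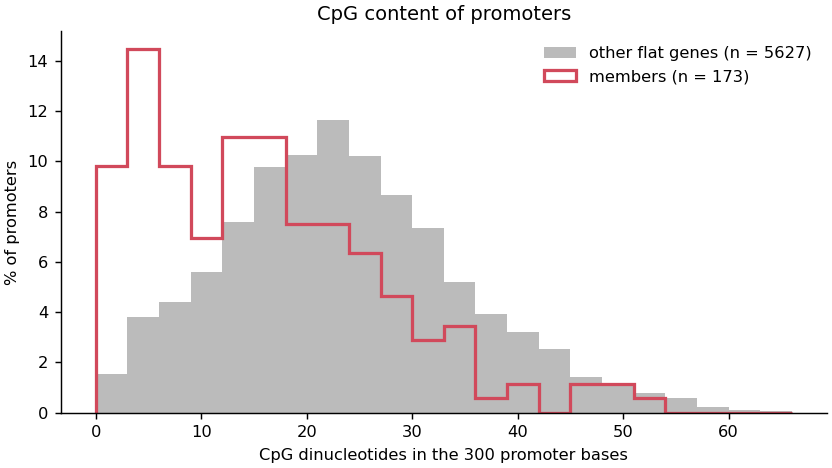
Share of promoter windows (percent, vertical axis) by the number of CpG dinucleotides in 300 bases (horizontal axis) for 173 members and 5627 other flat genes. The members have a median of 14 and the other flat genes of 22, and 24.3% of the members have 5 or fewer.

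Motif letters were counted on both strands of the same windows. The cAMP response element TGACGTCA was in 0 of 173 member windows, in 3.68% of the windows of the other flat genes and in 1.79% of all 32851 mouse promoters. The NRF1 core GCGCATGC was in 1.16%, 6.02% and 2.71%, and the TATA box TATAAA in 11.6%, 5.92% and 13.6%. The AP-1 site TGANTCA was in 6.94% of the members' windows, 4.18% of the others and 7.81% of all promoters. The CCAAT box was in 39.9%, 38.1% and 37.4%, the GC box GGGCGG in 63%, 68.4% and 35.7%, and the E-box CACGTG in 8.09%, 10.3% and 7.15%. The antioxidant response element core TGACNNNGC was in 11.0%, 14.2% and 12.4%, the FoxO site GTAAACA in 3.47%, 2.31% and 3.65%, the heat shock element core GAANNTTC in 5.78%, 4.87% and 7.86% and the C/EBP-ATF core TGATGNAAN in 2.89%, 2.01% and 3.95%. These are matches of letters in short windows.

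Some members were neighbors in the genome, within 100 kb of each other. Among these were Olig2 and Olig1, Fabp7 and Smpdl3a, Nes and Bcan (7.08 kb apart), Itih2 and Itih5, Stom and Ggta1, Eif2ak2 and Prkd3, Bhlhe41 and Sspn, and on chromosome 6 the cytokine receptor genes Ltbr and Tnfrsf1a with the tetraspanin gene Cd9. Chromosome 6 held 22 members (10.4%) and 4.60% of the other flat genes. Of the members, 45 overlap an annotated gene on the same strand, whose shared reads were not counted, and 90 overlap one on the other strand. Overlaps and neighbor pairs are not given for the other flat genes, so they are not set out as traits of the members.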

How the data were processed

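Poly-A RNA of 45 libraries was sequenced from strand-specific libraries, and the reads were demultiplexed with bcl2fastq (version 2.20.0.422), aligned to GRCm38 with STAR (version 2.5.4b) and assigned to genes on the sense strand with featureCounts (version 1.6.5), leaving out multi-mapping reads and those on overlapping genes. The authors deposited these raw counts per gene without normalization. CPM were computed here by scaling the counts of all gene rows of a library to a total of 1000000.

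Members and lists were chosen with earlier results of these data known. The conditions that the rule had not used were compared with edgeR (version 4.0.16, R 4.3.3) by quasi-likelihood F tests with TMM normalization on the 10 libraries of each pair of conditions, over genes with at least 1 read, and p-values were adjusted after Benjamini and Hochberg over all genes tested (threshold 0.05). The preparation number in the labels pairs the libraries. Deviations from the condition means of libraries with the same number correlated between −0.15 and 0.70 over 15 pairs. The values of preparation 6 were −0.01, −0.15 and 0.09, and those of the other preparations lay between 0.26 and 0.70. A fit with the preparation as a block, over genes passing filterByExpr, is therefore given where it changed calls or counts. DESeq2 (version 1.42.0), other scalings, filters and leaving out each preparation were alternatives.

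The tests were tried on simulated counts for SP TTX/NMDA against SP TTX with 200 changed genes. Of the calls over 30484 genes with at least 1 read, 30.9% were false, against 3.76% of those over 15683 genes that pass filterByExpr and 6.92% with the block as well. The prior degrees of freedom were infinite for the simulated counts and 25.4 for the deposited ones, so the shares need not hold for the latter. The simulated counts also held no differences between preparations, so the share with the block does not carry over to the paired fit. Of the changed genes, these fits called 35%, 29% and 22% at a log2 fold change of 0.3 and 99% in each at 1.

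Members were named by rule: the 12 with the largest ratio of LP TTX/NMDA to 2 h Bic, the 6 with the highest level in LP TTX/NMDA, those called in the 3 comparisons (up to 8 and 3, 6 and 6, and 3 and 3 in the 2 directions), up to 6 of each list described and 3 genes on each side of the threshold. Chosen after their values had been seen were Ttr, Nfe2l2, Yap1, Ppp1r3c, Lyz2, Mpeg1, Gpnmb, Gstm1, Sparc, Mcm3, Tril, Nes, Bcan, Lrig1, Itgav, Csf1 and the genome neighbors Sspn, Itih2, Itih5, Prkd3, Cd9, Ltbr, Tnfrsf1a, Ggta1, Stom and Smpdl3a. Gene positions came from GENCODE M21 (GRCm38), which held 54495 of the 54532 gene rows, and promoters from RefSeq (GRCm38.p6). Some members named by the rule are not reported here.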

Additional observations from a re-analysis of the deposited data

Results flagged for a closer look

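Among 66 sets of 5 same-preparation ratios, a preparation was marked when its gap to the nearest other, divided by the range of the 5, was above 0.71 (Dixon's critical value), which chance alone reaches in about 5% of such sets. In all 4 sets so marked the value was that of preparation 6. The members' median ratio of LP TBOA to 2 h Bic was 1.85 in preparation 6 and at most 1.20 in the others. The ratio of LP TBOA to LP TTX was 1.94 for Eif2ak2, the kinase PKR, with 1.31 as the next value. For Amy1 it was 2.16, with 0.926 as the nearest other value, and the LP TTX library of preparation 6 had the lowest Amy1 level of its condition, 3.64 CPM. The ratio of SP TTX/NMDA to SP TTX was 2.35 for Hapln1, with 1.41 as the next. The summed astrocyte markers of preparation 6 were 1936 CPM in LP TBOA and 1210 CPM in LP TTX, the highest and the lowest of these conditions, and their part in these values was not tested.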

How the results depend on the processing

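The number of members was 59 with TMM and 52 with DESeq2 size factors in place of 211, 383 and 84 at an NMDA ratio of 1.6 and 2.0, 118 with a flat window from 10% below to 11% above the control, 95 with a minimum of 10 CPM, and 118 to 258 when 1 preparation was left out (118 without preparation 1). The median ratio of LP TTX/NMDA to LP TTX was 1.75 with TMM. The other median ratios to Bic moved by less than the spread between preparations with TMM and with the replicate block, here a geometric mean of same-preparation ratios that was chosen after seeing the data, which gave 1.93 in place of 1.96 for LP TTX/NMDA to 2 h Bic.

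Members called higher in SP TTX/NMDA than in SP TTX numbered 3, against 1 in DESeq2, 1 with DESeq2 size factors in edgeR, 0 with filterByExpr, 1 in a fit over all 45 libraries, 0 among members that also pass the rule with TMM, 29 with the replicate block and filterByExpr, 51 with the block alone, and 1 to 32 without 1 preparation (1, 6 and 32 without preparations 1, 6 and 8). Members called lower numbered 1 with the block alone and 0 to 1 without 1 preparation (1 without preparation 8). With TBOA, 3 were called higher, against 1, 9, 1, 0 and 0 in the same first 5 settings, 24 and 91 with the block, and 1 to 44 without 1 preparation (36, 44, 1, 41 and 39 without preparations 1, 3, 6, 7 and 8). Between LP TTX and SP TTX, the block gave 3 higher with or without filterByExpr in place of 0, and 5 lower with it and 27 without it in place of 1. Leaving out 1 preparation gave 0 to 2 higher (1, 1, 1 and 2 without preparations 1, 3, 7 and 8) and 1 to 4 lower (2, 2, 3 and 4 without the same), and 0 were lower among members that also pass with TMM. Of the calls of single genes, Amy1 in the SP was the 1 lost with filterByExpr and the block together, and with filterByExpr alone it was lost as well. The replicate block with filterByExpr over the 4 preparations other than 6, chosen after seeing the data, gave 113 higher in the SP, 16 higher with TBOA, and 10 higher and 3 lower between LP TTX and SP TTX. The cause of these shifts was not tested. No call changed its direction in these alternatives, and of the values of called single genes under them 27 lost their call and 57 kept it.

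The calls without a block were few, and most were lost with a low-count filter. A gene at the minimum of 3 CPM has 40.4 reads in the shallowest library of 2 h Bic and LP TTX/NMDA, which limits the precision of the members with the lowest levels.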
